A study of Mus musculus with 12 samples.

Results

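The genes described here flank a stretch of mouse chromosome 19 in which RNA levels were higher in hematopoietic stem cells carrying the Emu-myc transgene. They are Smarca2, Vldlr, Pum3, Rfx3, Glis3 and Slc1a1 on the proximal side, and Prkg1, Cstf2t, Asah2 and Sgms1 on the distal side. These 10 genes were chosen by position from the 27179 genes listed, with the transgene effect on their stretch of the chromosome already known, and 9 of them had enough counts to be tested. The stretch itself, called the segment below, runs from the start of Plpp6 to the end of Uhrf2 (chr19:28963920-30093726, mm10, 1.13 Mb). Because the choice used the contrast between libraries with and without the transgene, the values of that contrast are given here as a description and carry no test for these genes.

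Total RNA of sorted hematopoietic stem cells, which sustain all blood lineages, was sequenced from C57BL/6J mice, with 1 library for each of 3 mice per genotype. Group CE carried Emu-myc and lacked Casp1 and Casp11 (Emu-myc Casp1 -/- Casp11 -/-), group E carried Emu-myc alone, group C was Casp1 -/- Casp11 -/-, and group WT was Wild-type (libraries WT2, WT3 and WT4). Emu-myc drives Myc from the immunoglobulin heavy chain enhancer, which is most active in B-lineage cells, and Casp1 and Casp11 encode the inflammatory caspases of pyroptosis. The sources used here give neither the age of the mice nor the gates of the sort.

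Libraries held 24529611 to 34065910 counts. Casp1 averaged 6.12 ± 0.56 CPM in CE and 42.1 ± 3.82 CPM in E, and 5.90 ± 0.70 CPM in C against 39.1 ± 9.0 CPM in WT (SD, n = 3 each; CPM are counts scaled by the effective library size). Casp11 is listed as Casp4 in the annotation, and its difference was smaller: it averaged 10.8 ± 2.51 CPM in CE and 14.7 ± 2.40 CPM in E, with overlapping libraries, and 8.98 ± 1.66 CPM in C against 13.01 ± 1.31 CPM in WT, without overlap (SD, n = 3 each). Gene-level counts thus checked the Casp1 deletion and did not settle the Casp11 deletion. Myc averaged 366.9 ± 36.9 CPM in CE and 433.6 ± 13.03 CPM in E, and 326.7 ± 8.86 CPM in C and 425.9 ± 28.5 CPM in WT (SD, n = 3 each), so total Myc counts did not separate the transgenic libraries from the others. All 9 stem cell markers were tested, and their summed level was 681 to 852 CPM in E and CE and 558 to 756 CPM in WT and C. The 4 neutrophil-lineage markers, of which Mpo and Elane are also known from myeloid progenitors, summed to 6213 to 10264 CPM in E and CE and 6737 to 10347 CPM in WT and C. C1 and C3 listed more genes with at least 1 count (22900 and 21247) than any other library (17310 to 18863). All libraries of the caspase knockout except CE3 held Y-linked transcripts, and no other library did beyond trace level, so the genotype and sex nearly coincided.

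Neighbouring genes on a chromosome share copy number, and they can share chromatin state and enhancers, so a change along a run of neighbours is read in gene order. Genes on either side of such a run mark where it starts and stops. Vldlr encodes the very low density lipoprotein receptor, which binds apolipoprotein E and, in brain, reelin. Cstf2t encodes an intronless paralog of the cleavage stimulation factor subunit CSTF2, which binds pre-mRNA downstream of the polyadenylation signal.

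Windows of 250 bases before a transcript start listed by RefSeq are shown for genes that the gene order turns on: Vldlr and its distal neighbour Pum3, the first gene of the segment (Plpp6), and Cstf2t. Capitals mark CG dinucleotides. The sequences are from RefSeq (GRCm38.p6, the mm10 assembly), written 5′ to 3′ on the strand of the gene.
Vldlr: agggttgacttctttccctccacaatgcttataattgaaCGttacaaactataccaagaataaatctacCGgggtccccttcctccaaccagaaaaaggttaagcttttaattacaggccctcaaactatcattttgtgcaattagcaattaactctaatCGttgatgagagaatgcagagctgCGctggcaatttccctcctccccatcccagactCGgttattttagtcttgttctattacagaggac
Pum3: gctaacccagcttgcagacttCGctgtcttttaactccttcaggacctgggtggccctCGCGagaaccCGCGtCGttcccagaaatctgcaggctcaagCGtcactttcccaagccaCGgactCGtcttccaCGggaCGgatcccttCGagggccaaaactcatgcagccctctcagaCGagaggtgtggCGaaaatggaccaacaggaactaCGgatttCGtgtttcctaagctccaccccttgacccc
Plpp6: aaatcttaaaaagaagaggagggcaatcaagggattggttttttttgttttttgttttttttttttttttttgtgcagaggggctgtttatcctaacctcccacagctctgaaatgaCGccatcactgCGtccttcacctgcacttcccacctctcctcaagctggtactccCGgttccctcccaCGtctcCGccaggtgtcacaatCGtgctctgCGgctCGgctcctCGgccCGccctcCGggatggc
Cstf2t: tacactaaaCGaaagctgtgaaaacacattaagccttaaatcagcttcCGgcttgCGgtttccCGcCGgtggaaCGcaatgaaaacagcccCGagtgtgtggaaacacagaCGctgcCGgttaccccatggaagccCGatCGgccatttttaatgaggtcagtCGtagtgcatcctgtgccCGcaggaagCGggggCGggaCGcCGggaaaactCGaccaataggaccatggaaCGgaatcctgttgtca

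These windows lie at chr19:27216234-27216483 (+ strand, Vldlr), chr19:27429909-27430158 (− strand, Pum3), chr19:28963670-28963919 (+ strand, Plpp6) and chr19:31082591-31082840 (+ strand, Cstf2t). RefSeq lists 2 starts for Vldlr, and the window before the proximal one is shown; its last 4 bases lie within the gene as bounded by all its transcripts. The Vldlr window held 5 CG dinucleotides at 41.6% G and C, the fewest of the windows shown, against 16 for Pum3, 11 for Plpp6 and 19 for Cstf2t. Over 32851 windows of the same length before annotated mouse starts, the median was 6 CG dinucleotides (quartiles 2 and 16). The letters CACGTG, a core sequence bound by MYC with MAX, read the same on both strands and were in none of the 4 windows. They were in 1978 of the 32851 windows (6.02%).

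Levels differed widely among the edge genes. Per kilobase of the longest transcript, Pum3, which encodes a nucleolar Pumilio-family RNA-binding protein, averaged 27.4 ± 5.003 CPM per kb (SD, n = 12 libraries), the highest level. Smarca2, which encodes the SWI/SNF ATPase BRM, followed at 14.8 ± 2.08 CPM per kb and Cstf2t at 14.1 ± 2.97 CPM per kb (SD, n = 12 each), which differ by less than their spread. Sgms1, the Golgi sphingomyelin synthase gene, averaged 8.45 ± 1.12 CPM per kb and Vldlr 4.03 ± 1.13 CPM per kb (SD, n = 12 each). Rfx3, a ciliogenic transcription factor gene, was at 1.76 ± 0.31 CPM per kb, and Asah2, which encodes neutral ceramidase, at 1.69 ± 0.39 CPM per kb (SD, n = 12 each), again within their spread. Prkg1, which encodes cGMP-dependent protein kinase 1, averaged 1.302 ± 0.32 CPM per kb (SD, n = 12). Glis3, a zinc finger transcription factor gene studied mainly in pancreas, thyroid and kidney, averaged 0.182 ± 0.063 CPM per kb (SD, n = 12). The lowest level was that of Slc1a1, which encodes the glutamate transporter EAAC1, at 0.0348 ± 0.036 CPM per kb (SD, n = 12).

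**Figure D1:**
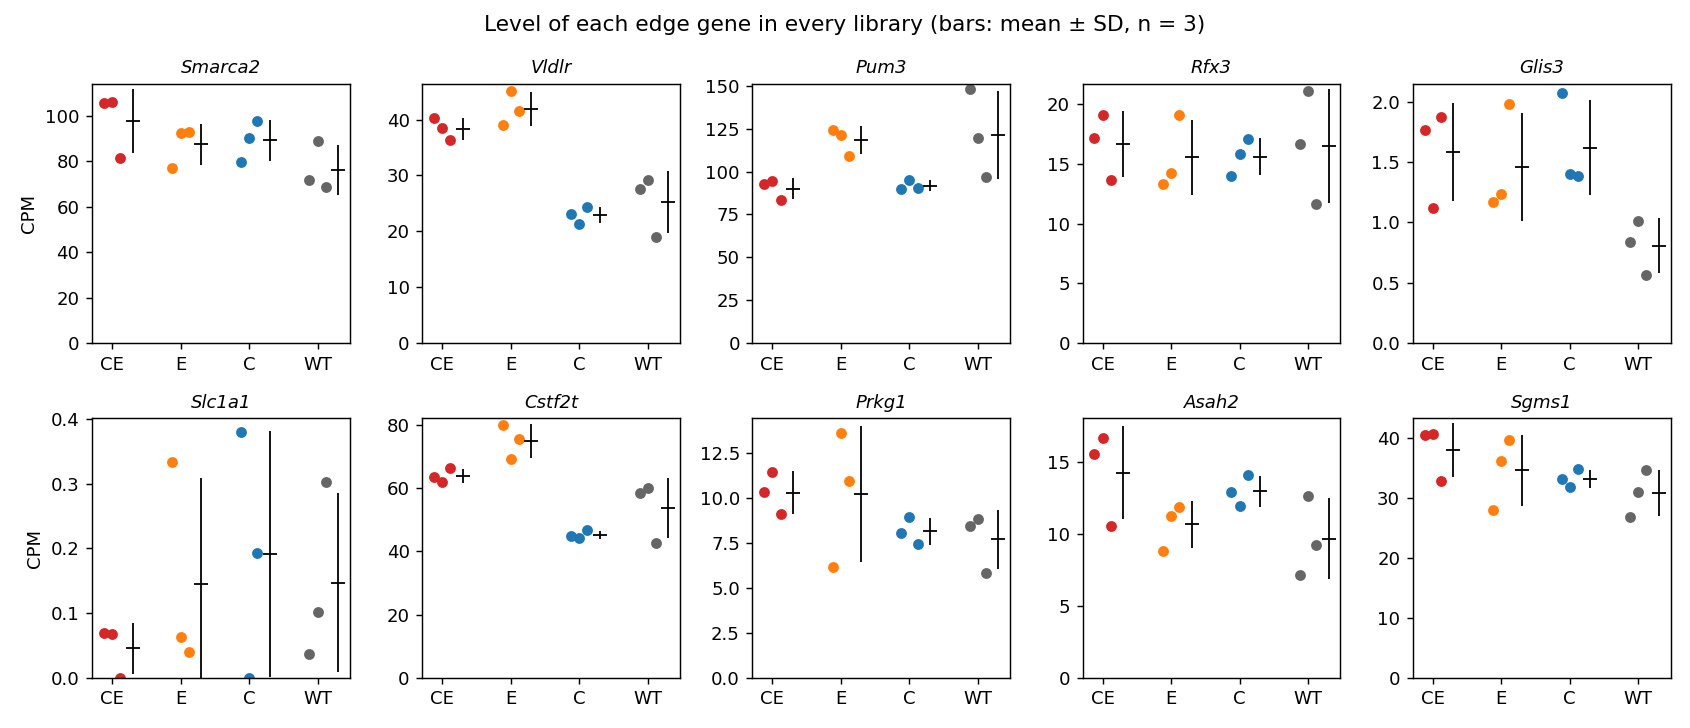
Level of each of the 10 edge genes in CPM (y axis, linear, a separate scale for each gene) in every library of groups CE, E, C and WT (x axis); points are libraries and bars give the mean ± SD of 3. The CE and E points of Vldlr, 36.3 to 45.1 CPM, lie above all its C and WT points, 18.9 to 29.1 CPM, and Cstf2t is separated in the same way.

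Along the proximal side, the higher level in transgenic libraries appeared at Vldlr, stopped at the next gene, and was seen again at the segment. The weakly expressed Glis3, which lies before the segment, did not settle where the higher level resumed. Of the 9 tested edge genes, Vldlr and Cstf2t passed the threshold as higher in E and CE against WT and C (edgeR's quasi-likelihood test, adjusted p under 0.05), a contrast in which 0.187% of the 14473 tested genes passed as higher, 0.352% as lower and 0.539% in either direction. Nothing is read from this count, since the choice of the genes used the contrast. The same 2 genes were the edge genes with every E and CE library above every WT and C library, which held for 63 of all tested genes (0.435%), while 0.311% had them all below.

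Vldlr (gene 22359, chr19:27216480-27254231, + strand) was at 40.3, 38.5 and 36.3 CPM in CE1 to CE3, at 39.1, 45.1 and 41.5 CPM in E1 to E3, at 23.1, 21.4 and 24.3 CPM in C1 to C3, and at 27.7, 29.1 and 18.9 CPM in WT2 to WT4. All 6 transgenic libraries were above all others, and WT4 was the lowest library. Over both backgrounds its log2 fold change was 0.74 (SE 0.10, 1.67-fold), made up of 0.74 (SE 0.14) in CE against C and 0.73 (SE 0.14) in E against WT. Those contrasts share no library. Without WT4 the log2 fold change of E against WT was 0.57 (SE 0.10). Taken singly, CE against C had 1 edge gene past the threshold, Vldlr, with 0.0622% of all genes passing as higher, 0.145% as lower and 0.207% in all. E against WT had none of the 9 (edgeR), with 0.0484% of all genes passing as higher, 0.0345% as lower and 0.0829% in all. At an unadjusted p under 0.05 (edgeR) it had 3 of the 9, with 6.58% of all genes. By DESeq2 it had 2 of the 9 past the threshold, with 52 of the 14473 tested genes. These counts too rest on the contrast behind the choice, and nothing is read from them.

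The summed level of 8 B-lineage markers, none of them at 0, also separated these libraries, at 63.2 to 75.1 CPM in E and CE against 88.1 to 212 CPM in WT and C. The summed levels of 5 erythroid markers (55.3 to 178 CPM in E and CE, 113 to 285 CPM in WT and C) and of 5 basophil and mast cell markers (79.6 to 137 CPM in E and CE, 93.8 to 250.4 CPM in WT and C) overlapped. The part of these cells in the values of the edge genes was not tested, and in sorted bulk samples fewer cells of a type and less RNA per cell cannot be told apart.

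Pum3 (chr19:27388698-27429908, − strand) starts 134 kb beyond the end of Vldlr and did not share its pattern. It was at 92.6, 94.3 and 83.2 CPM in CE1 to CE3, at 124.2, 121.4 and 108.9 CPM in E1 to E3, at 89.9, 95.2 and 90.3 CPM in C1 to C3, and at 148.0, 119.5 and 96.8 CPM in WT2 to WT4. The transgenic libraries lay within the range of the others, with a log2 fold change of -0.03 (SE 0.09). Rfx3 (chr19:27761721-28014669, − strand), the next edge gene, was at 13.3 to 19.1 CPM in E and CE and at 11.6 to 21.1 CPM in WT and C, with a log2 fold change of 0.00 (SE 0.14).

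Glis3 (chr19:28258851-28680265, − strand) had 13 to 60 counts a library. It was at 1.76, 1.12 and 1.87 CPM in CE1 to CE3, at 1.17, 1.23 and 1.98 CPM in E1 to E3, at 2.07, 1.40 and 1.38 CPM in C1 to C3, and at 0.840, 1.01 and 0.563 CPM in WT2 to WT4. The E libraries were all above the WT libraries, whereas the CE and C libraries overlapped. The share of all genes separated in this way between E and WT was not counted, so nothing is read from the separation. The log2 fold changes were -0.03 (SE 0.31) in CE against C and 0.84 (SE 0.34) in E against WT. Over both backgrounds the log2 fold change was 0.41 (SE 0.23), which does not settle whether Glis3 shared the rise. Slc1a1 (chr19:28835135-28913960, + strand) ends 49.96 kb before Plpp6 and is the nearest edge gene to the segment, but its 0 to 11 counts a library, 43 in all, were too few to test.

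Smarca2 (chr19:26605073-26778321, + strand) lies on the far side of Vldlr, 438 kb before it. It was at 105.7, 106.4 and 81.7 CPM in CE1 to CE3, at 77.0, 92.5 and 93.0 CPM in E1 to E3, at 79.7, 90.5 and 97.8 CPM in C1 to C3, and at 71.7, 89.0 and 68.6 CPM in WT2 to WT4. The groups overlapped, with a log2 fold change of 0.16 (SE 0.09). None of the 6 genes tested within 5 Mb before Smarca2 passed, and their median log2 fold change was 0.01. Vldlr was thus the 1 gene of 14 tested in the 5 Mb before the segment that passed or had all transgenic libraries above all others, and the median over the 14 was 0.05.

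**Figure D2:**
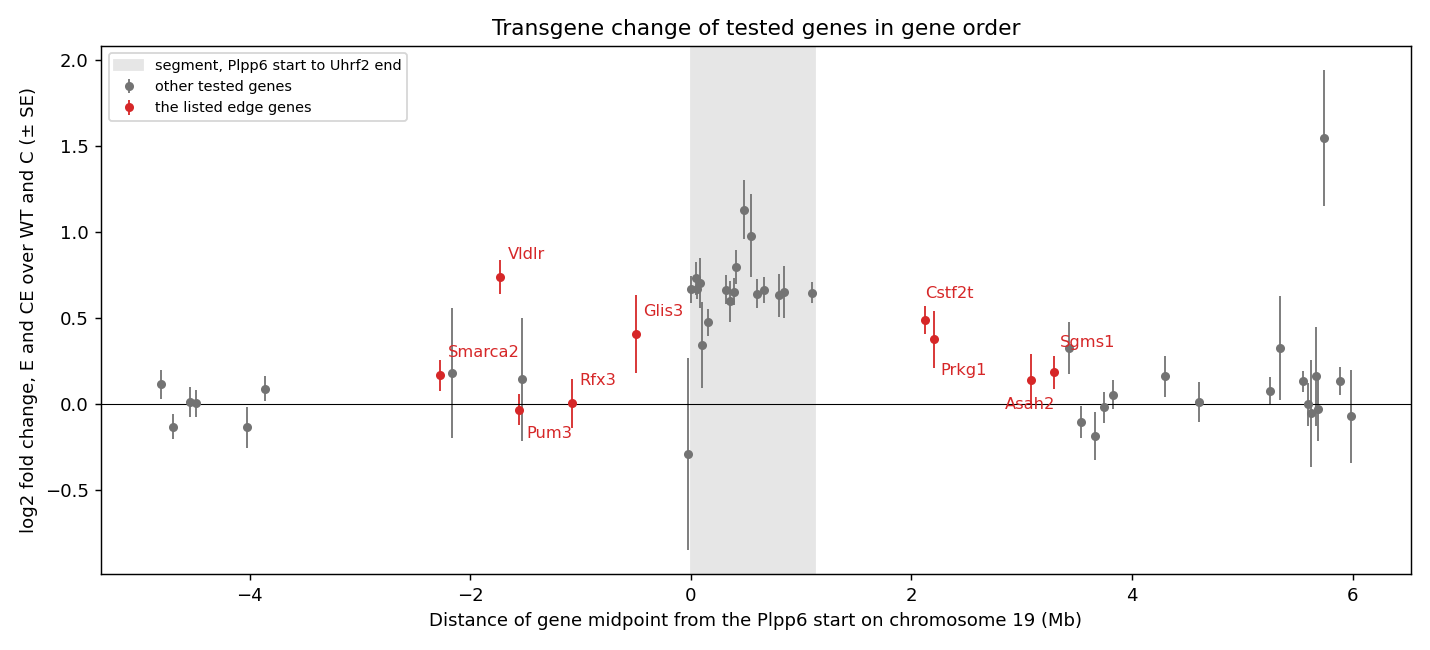
Log2 fold change of E and CE over WT and C (y axis, points, bars ± SE) against the distance of the gene midpoint from the Plpp6 start in Mb (x axis), for all tested genes within 5 Mb of the segment; the edge genes are red and the segment is shaded. Vldlr, at 0.74, stands level with the segment genes, while Pum3 and Rfx3 between them are at -0.03 and 0.00. Glis3, also between them but weakly expressed, is at 0.41 (SE 0.23). The rightmost high point is Slc16a12, at 1.54.

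Inside the segment the rise was present from the first gene to the last. Plpp6, which encodes a polyisoprenoid diphosphate phosphatase, averaged 24.0 CPM in CE and 24.4 CPM in E, against 15.1 CPM in C and 15.5 CPM in WT. Single libraries were at 21.4 to 26.9 CPM with the transgene and at 14.2 to 16.5 CPM without it, a log2 fold change of 0.66 (SE 0.08). Uhrf2, a ubiquitin ligase gene at the other end, averaged 150.9 CPM in CE and 151.6 CPM in E, against 98.0 CPM in C and 95.3 CPM in WT. Single libraries were at 136.4 to 160.3 CPM with the transgene and at 87.3 to 100.1 CPM without it, a log2 fold change of 0.65 (SE 0.06). Of the 17 tested genes in the segment, 14 passed as higher and 15 had every transgenic library above every other. The segment too was chosen with this contrast known, so these counts describe it and carry no test. The exceptions to the separation were Gm9895 (log2 0.34, SE 0.25) and Ranbp6 (log2 0.65, SE 0.15), whose lowest transgenic library was at 18.7 CPM and whose highest other library was at 19.5 CPM. The median log2 fold change of the 17 was 0.66, with 0.66 in CE against C and 0.67 in E against WT.

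The position of each edge is limited by genes too weakly expressed to measure, and by the intermediate values of Glis3 and Prkg1. Between the end of Glis3 and the start of Plpp6 lie 284 kb with 4 listed genes: D930032P07Rik, Rps15a-ps2, Slc1a1 and 4430402I18Rik. Only 4430402I18Rik, which overlaps the start of Plpp6, was tested, with 1 to 29 counts a library and a log2 fold change of -0.29 (SE 0.56). Between the end of Uhrf2 and the start of Prkg1 lie 471 kb with 5 listed genes: Gldc, Rpl31-ps20, Mbl2, Ppp1r2-ps3 and Dkk1. None of these was tested, and none had more than 13 counts in a library. Prkg1 itself was at log2 0.37 (SE 0.17) in E and CE against WT and C, beside a segment median of 0.66. Cstf2t within it was at 0.49 (SE 0.08), so these values do not place the distal edge in this gap.

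On the distal side, Cstf2t was higher in the transgenic libraries and its host gene Prkg1 was not separated. Cstf2t (chr19:31082841-31086592, + strand), 989 kb beyond Uhrf2, was at 63.7, 62.1 and 66.4 CPM in CE1 to CE3, at 80.0, 69.3 and 75.5 CPM in E1 to E3, at 44.9, 44.2 and 46.7 CPM in C1 to C3, and at 58.4, 60.2 and 42.8 CPM in WT2 to WT4. All transgenic libraries were above all others, by a narrow margin between CE2 and WT3. Its log2 fold change was 0.49 (SE 0.08, 1.40-fold), with 0.50 (SE 0.12) in CE against C and 0.48 (SE 0.12) in E against WT.

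Cstf2t is similar in sequence to Cstf2 on chromosome X, so counts could be shared between them. Cstf2 averaged 92.3 ± 11.3 CPM in CE, 94.9 ± 6.71 CPM in E, 95.9 ± 5.04 CPM in C and 93.3 ± 9.69 CPM in WT (SD, n = 3 each), with a log2 fold change of -0.02 (SE 0.08). Whether counts were shared between the paralogs was not tested. Cstf2t also lies within Prkg1 on the opposite strand, and the sources used here do not say whether reads were counted by strand, so reads of the overlap cannot be told apart.

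Prkg1 (chr19:30564487-31765268, − strand), the first tested gene beyond Uhrf2, was at 10.3, 11.5 and 9.07 CPM in CE1 to CE3, at 6.13, 13.6 and 10.9 CPM in E1 to E3, at 8.05, 8.91 and 7.42 CPM in C1 to C3, and at 8.44, 8.82 and 5.80 CPM in WT2 to WT4. With the exception of E1, all transgenic libraries were above all others. Its log2 fold change was 0.37 (SE 0.17), with 0.34 in CE against C and 0.41 in E against WT.

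Asah2 (chr19:31984646-32103140, − strand) was at 15.6, 16.7 and 10.6 CPM in CE1 to CE3, at 8.84, 11.3 and 11.9 CPM in E1 to E3, at 12.9, 11.9 and 14.1 CPM in C1 to C3, and at 7.12, 12.7 and 9.23 CPM in WT2 to WT4. Sgms1 (chr19:32122727-32389885, − strand) was at 40.5, 40.6 and 32.8 CPM in CE1 to CE3, at 28.0, 36.1 and 39.6 CPM in E1 to E3, at 33.1, 31.7 and 34.7 CPM in C1 to C3, and at 26.8, 31.0 and 34.6 CPM in WT2 to WT4. Groups overlapped for both genes, whose log2 fold changes were 0.14 (SE 0.15) and 0.18 (SE 0.10) in that order. The lncRNA gene 2700046G09Rik, which overlaps the end of Sgms1, was at log2 0.32 (SE 0.15), did not pass and had overlapping groups. None of the 16 genes tested that start beyond Sgms1 within 5 Mb of the segment passed, and their median log2 fold change was 0.03. The one furthest from 0, named after its values were seen, was the weakly expressed transporter gene Slc16a12 (chr19:34668401-34747493), at 0.277 to 3.45 CPM in E and CE and 0.225 to 0.879 CPM in WT and C. Its libraries overlapped, and its log2 fold change of 1.54 (SE 0.40) was larger than that of any segment gene. Cstf2t was the 1 gene of 21 tested in the 5 Mb after the segment that passed, and the median over the 21 was 0.13.

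**Figure D3:**
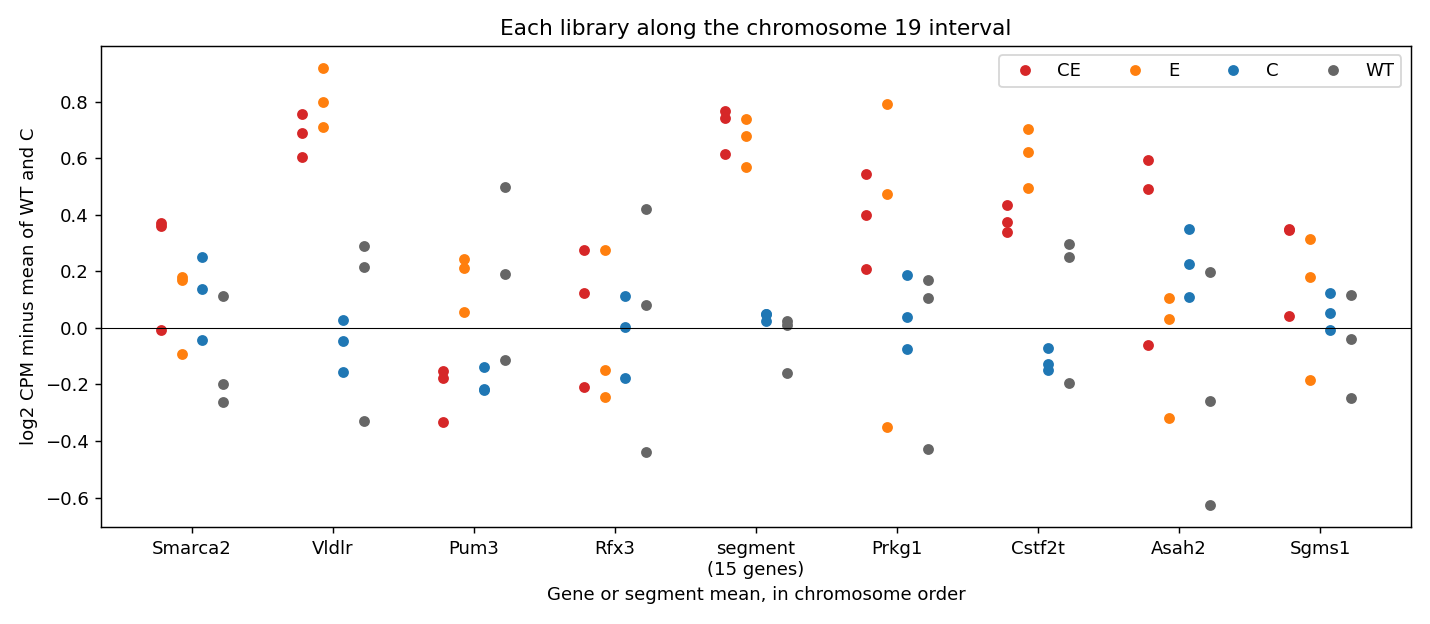
Log2 CPM of each library minus the mean of the 6 WT and C libraries (y axis) for 8 edge genes and for the mean of 15 segment genes (x axis, chromosome order); points are libraries, coloured by group. The 6 CE and E libraries lie between 0.57 and 0.77 for the segment and above all C and WT libraries for Vldlr and Cstf2t, with overlap at the other edge genes.

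The pattern was the same when single libraries were followed along the chromosome. Relative to the mean of WT and C, the mean log2 level of 15 segment genes was 0.77, 0.74 and 0.61 in CE1 to CE3, 0.57, 0.68 and 0.74 in E1 to E3, 0.05, 0.02 and 0.05 in C1 to C3, and 0.01, 0.03 and -0.16 in WT2 to WT4. Each transgenic mouse therefore had a similar segment level, and no other mouse came near it. The mean of the proximal flank without Vldlr stayed between -0.10 and 0.09 in all 12 libraries, and that of the distal flank without Cstf2t between -0.16 and 0.23.

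Counted in gene order over the whole of chromosome 19, 20 of 486 tested genes (4.12%) had every transgenic library above every other, and the longest unbroken run of such genes was 10. On every other chromosome the share was at most 0.688% and no run was longer than 1 gene. The run of 10 lies within the segment, which was chosen with this contrast known. The comparison between chromosomes is therefore a description and carries no test. Outside the segment and its flanks, 3 of 434 tested genes on chromosome 19 were separated in this way (Rab3il1, Myof and Scd2), and none of the 434 passed as higher.

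Among 11643 genes whose average log2 CPM reached 1 or more, those whose pattern over the 12 libraries was nearest to that of Vldlr were all in the segment. Likeness was measured as the root mean square difference of centred log2 CPM. It was 0.114 for Cdc37l1, which encodes an HSP90 cochaperone-like protein, and 0.119 for Ermp1, a metallopeptidase gene of the endoplasmic reticulum. It was 0.122 for Jak2, the cytokine receptor kinase gene, 0.147 for Plpp6 and 0.149 for Uhrf2. Of the 15 segment genes compared, 13 were among the 50 nearest. The likeness is a description over the same libraries that chose the genes.

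Whether the transgene effect at the edges depended on the caspase background was asked by the difference between CE against C and E against WT, which the choice of genes did not use. No gene of the 14473 passed (0% called, edgeR's quasi-likelihood test), with 305 at an unadjusted p under 0.05 and 0 called by DESeq2 or limma voom. No edge gene was among the 305. The difference was 0.01 for Vldlr on the log2 scale (95% interval -0.40 to 0.42) and 0.02 for Cstf2t (95% interval -0.32 to 0.37). True differences of any size within those intervals remain compatible with the data. Of the edge genes the difference was furthest from 0 for Glis3, at -0.86 (SE 0.46, 95% interval -1.84 to 0.11, unadjusted p = 0.0787 by edgeR's quasi-likelihood test), the weakly expressed gene that was lowest in WT.

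**Figure D4:**
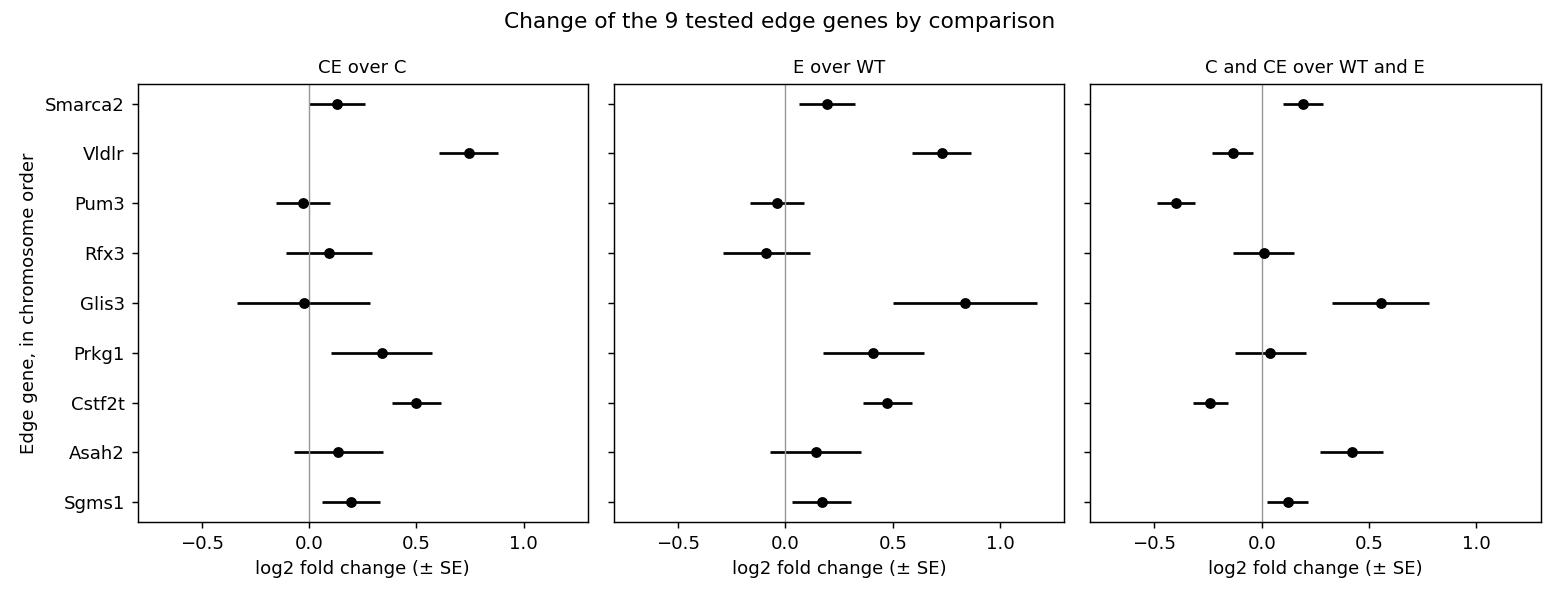
Log2 fold change (x axis, points, bars ± SE) of the 9 tested edge genes (y axis, chromosome order) in CE over C, E over WT, and C and CE over WT and E. Vldlr and Cstf2t sit at 0.74 and 0.50 in CE over C and at 0.73 and 0.48 in E over WT, and Pum3 sits at -0.40 in the caspase comparison.

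In the caspase comparison Pum3 and Cstf2t were lower in the knockout libraries, and Vldlr did not pass. In C and CE against WT and E, 21.0% of all tested genes passed (9.26% higher and 11.8% lower), and 2 of the 9 edge genes did, both lower. Pum3 fell in the knockout libraries, which were at 83.2 to 94.3 CPM in CE and 89.9 to 95.2 CPM in C, against 108.9 to 124.2 CPM in E and 96.8 to 148.0 CPM in WT. These groups did not overlap, by a narrow margin between C2 at 95.2 CPM and WT4 at 96.8 CPM. The share of all genes separated in this comparison was not counted. The log2 fold change of Pum3 was -0.40 (SE 0.09, adjusted p = 0.00877, edgeR's quasi-likelihood test). Cstf2t fell by 0.24 on the log2 scale (SE 0.08, adjusted p = 0.04996, edgeR's quasi-likelihood test), with overlapping groups.

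The other edge genes did not pass in this comparison. By edgeR's quasi-likelihood test the log2 fold change was 0.42 for Asah2 (SE 0.15, adjusted p = 0.0560), 0.55 for Glis3 (SE 0.23, adjusted p = 0.0966) and 0.19 for Smarca2 (SE 0.09, adjusted p = 0.149). It was -0.13 for Vldlr (SE 0.10, adjusted p = 0.337, edgeR), 0.12 for Sgms1 (adjusted p = 0.390), 0.04 for Prkg1 (adjusted p = 0.884) and 0.01 for Rfx3 (adjusted p = 0.973). With 2 of 9, the edge genes stood near the share of all genes that passed. Since sex and the caspase genotype nearly coincided, their effects cannot be told apart: with Y-linked transcripts as a covariate, which rests on CE3 alone, Pum3 was at -0.54 (SE 0.18, adjusted p = 0.185, edgeR) and Cstf2t at -0.17 (SE 0.17, adjusted p = 0.586), and 2 genes passed in all. Asah2 changed sign there, to -0.10 (SE 0.27, adjusted p = 0.858, edgeR). The Cstf2t call was also lost without any single library other than WT4 (adjusted p 0.0622 to 0.134), and without C1 and C3 together both calls were lost (adjusted p = 0.143 for Pum3 and 0.242 for Cstf2t).

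Relatives of the edge genes elsewhere in the genome were counted in each comparison. Lists of 137 genes in the pathways and families of the 10 edge genes held 118 tested genes. In E and CE against WT and C none of these passed as higher, and 1 passed as lower: Pde2a, a phosphodiesterase gene that degrades cGMP and cAMP, at 53.3 CPM in CE and 41.4 CPM in E against 75.5 CPM in C and 57.7 CPM in WT (log2 -0.49, SE 0.10, adjusted p = 0.0399, edgeR). With 0.187% of all genes passing as higher and 0.352% as lower, these counts are near the background and are no result about the relatives. None passed in E against WT, CE against C or the difference.

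In the caspase comparison, 17 of the 118 passed as higher and 9 as lower, beside the 9.26% and 11.8% of all genes. Of 22 tested genes of the lipoprotein receptor and reelin pathway, 8 were higher and 1 was lower. They included Sorl1, a sorting receptor gene (log2 0.43, SE 0.06, adjusted p = 0.00223, edgeR), Crkl, an adaptor of reelin signalling (log2 0.41, SE 0.08, adjusted p = 0.00473), and Mylip, the ubiquitin ligase gene that directs VLDLR to degradation (log2 -0.32, SE 0.08, adjusted p = 0.0144). Of 25 SWI/SNF genes, 6 were higher, among them Arid1a (log2 0.42, SE 0.07, adjusted p = 0.00313, edgeR), and 2 were lower, among them Brd7 (log2 -0.26, SE 0.06, adjusted p = 0.0140). Both encode subunits that define separate forms of the complex.

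Of 25 genes of ceramide and sphingomyelin metabolism, none was higher and 5 were lower, beside 9.26% and 11.8% of all genes. Their median log2 fold change was 0.02, so the list as a whole was not shifted down. Sgpp1, a sphingosine-1-phosphate phosphatase gene, was at log2 -0.31 (SE 0.07, adjusted p = 0.0103, edgeR) and Asah1, the lysosomal acid ceramidase gene, at log2 -0.21 (SE 0.07, adjusted p = 0.0405). Among 18 cleavage and polyadenylation factors, Nudt21, a subunit of cleavage factor Im, was lower (log2 -0.41, SE 0.08, adjusted p = 0.00568, edgeR) and Cpsf1, the largest subunit of the polyadenylation specificity factor, was higher (log2 0.22, SE 0.07, adjusted p = 0.0339). Pde2a was higher among 12 genes of the cGMP kinase pathway (log2 0.38, SE 0.10, adjusted p = 0.0182, edgeR). Glis2 was higher among 3 tested GLIS and GLI genes (log2 0.42, SE 0.09, adjusted p = 0.00936). These counts carry the same overlap of sex and caspase genotype.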

How the data were processed

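The values are raw read counts by NCBI Gene number for 12 libraries, as deposited by the authors. Alignment with STAR 2.5.3 to mm10 is per the submitters' processing notes. The sources used here do not name the counter, the annotation or the strand handling. Gene symbols and coordinates are those of RefSeq GRCm38.p6, which matched 25275 of 27179 genes. The other 1904 stayed in the tests by number.

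All 12 libraries were fitted together with edgeR 4.0.16 in R 4.3.3, with filterByExpr by group, TMM factors, group means and two-sided quasi-likelihood tests. Adjusted p is Benjamini-Hochberg over 14473 tested genes, with a threshold of 0.05. The biological coefficient of variation was 0.139. Each library is a separate mouse. Flanks are 5 Mb on each side. DESeq2 1.42.0, limma 3.58.1 (voom) and further settings served as alternatives.

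The genes, lists and markers were chosen with earlier results of these data known. Beside the edge genes, the text names the genes nearest each edge, flank genes with separated libraries and the 5 genes most like Vldlr. It also names up to 5 family genes a list by adjusted p. Slc16a12 and 2700046G09Rik were added after their values were seen. Replicate numbers were not used to pair the mice in the main fit, and their check in the closing section cannot exclude a pairing. All columns were used.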

Additional observations from a re-analysis of the deposited data

How the results depend on the processing

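Vldlr and Cstf2t kept a positive log2 fold change in E and CE against WT and C under every setting run, between 0.65 and 0.79 for Vldlr and between 0.41 and 0.53 for Cstf2t. Both stayed called there in all 12 fits that left out 1 library. Without C1 and C3 together, an alternative chosen after seeing the data that leaves 1 library in C and assumes it varies like the others, 1 of the edge genes was called (Vldlr) and 24 genes in all. No call of an edge gene changed direction.

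The number of genes called moved with the settings. In E and CE against WT and C it was 78, with 339 without a low-count filter, 208 with DESeq2, 177 with limma voom, and 36 (without E3) to 109 (without WT4) when 1 library was left out. In E against WT it was 12, with 217 without a filter, 52 with DESeq2, 28 with the replicate block, 1 with only these groups fitted, 3 without C1 and C3, and 5 to 21 when 1 library was left out; 2 edge genes were called there with no filter or DESeq2, against 0. In CE against C it was 30, with 203 without a filter, 66 with DESeq2, 109 with limma voom, 47 with the replicate block, 9 with the Y-linked covariate, 110 with only these groups, 0 without C1 and C3, and 2 to 42 when 1 library was left out. There 1 edge gene was called (Vldlr), 2 with no filter, DESeq2, voom, the block or only these groups, 0 with the covariate or without C1 and C3, and 0 to 2 when 1 library was left out. The difference between backgrounds gave 39 genes without a filter, against 0. In the caspase comparison it was 3042, with 2 under the covariate, 20 without C1 and C3, and 1594 (without C3) to 4667 (without WT4) when 1 library was left out. Of the edge genes 2 were called there, 1 with RLE factors, 0 with the covariate or without C1 and C3, and 1 to 3 when 1 library was left out. The cause of these shifts was not tested.

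Genes with all transgenic libraries above all others numbered 63, 137 without C1 and C3, and 71 to 102 when 1 library was left out; in the distal flank 1, with 2 for flanks of 10 Mb and 1 to 2 when 1 library was left out (2 without E1, where Prkg1 joined Cstf2t). Deviations of same-numbered libraries from their group means had low correlations (15 pairs, r -0.24 to 0.17, 4 of them over 0.1). Pairs with different numbers were not compared, so this check cannot exclude a pairing by number. With the replicate block, 116 genes were called in E and CE against WT and C, against 78. In the caspase comparison 4430 were called, against 3042. The block gives WT4 a term of its own, and under it Vldlr was lower in the caspase comparison (log2 -0.22, adjusted p = 0.0444, edgeR). Asah2 passed there without a filter (adjusted p = 0.0128), with DESeq2 (0.0234) and with limma voom (0.0366), and turned to log2 -0.10 with the Y-linked covariate (adjusted p = 0.858). Low counts limit Glis3 and the gaps at both edges.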
